A study of Mus musculus with 6 samples.

Results

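Plac8 and 6 further genes used to mark monocytes (Ly6c1, Ly6c2, Ly6i, Ccr2, Cx3cr1 and Spn) were described in RNA-seq counts of mouse macrophages with and without MSR1, 7 of the 52550 genes in the deposited table. Plac8 was picked because it was among the strongest rises in MSR1 KO over MSR1 WT macrophages, and the others to see whether monocyte genes rose with it. The same KO over WT contrast thus chose the genes, so their differences are given as descriptions without a p. The libraries were 3 from MSR1 KO and 3 from MSR1 WT mice, all labelled C57BL/6 and carrying no other allele by the labels. In both genotypes, bone marrow cells had grown for 7 days in 25 ng/ml M-CSF, a growth factor that turns marrow precursors into macrophages. The macrophages then shared a transwell with BMSCs, the stromal cells of bone marrow, for 48 h, so that a porous membrane kept both cell types apart. The KO was carried by the whole mouse rather than by macrophages alone. The study describes the libraries of a genotype as biological replicates. The labels do not say whether each came from a mouse of its own, so errors measure the spread between these libraries.

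Monocytes leave the bone marrow for the blood, and M-CSF drives them on to become macrophages, with falling monocyte genes along the way. Mouse monocytes fall into a classical subset with high Ly6C and CCR2, and a nonclassical, patrolling subset with low Ly6C and high CX3CR1 and CD43. Plac8 encodes a small cysteine-rich protein of immune cells and is widely used to mark classical monocytes. Ly6c1 and Ly6c2 encode nearly identical forms of Ly6C, a protein tethered to the cell surface by a lipid anchor, and Ly6i encodes a relative in the same gene cluster. Ccr2 encodes the receptor of the chemokine CCL2, which draws monocytes out of the marrow. Cx3cr1 encodes the receptor of fractalkine, and Spn encodes CD43, a mucin of the leukocyte surface. Many Ly6 genes and Plac8 are also expressed outside monocytes, in lymphocytes and granulocytes among others.

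Total counts per library ranged from 36143518 to 47417448. Msr1 itself had 2118, 1825 and 2000 counts in the KO libraries and 7543, 9163 and 9219 in the WT libraries, lower in every KO library although not at 0. Macrophage genes were abundant in all libraries. The receptor of M-CSF, Csf1r, averaged 4413 CPM in MSR1 WT and 4539 CPM in MSR1 KO libraries, where CPM is the usual unit of counts scaled to library size, here by TMM. No library stood apart on the totals.

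Plac8, Ly6c2 and Ly6i were higher in MSR1 KO macrophages without overlap between the genotypes, at 3.71, 2.64 and 2.62 times the MSR1 WT level. Spn also did not overlap, but its difference was small at 1.15 times. Ly6c1, Ccr2 and Cx3cr1 had higher means in MSR1 KO macrophages, yet their libraries overlapped between the genotypes. All 7 genes had enough counts to be tested, and 3 of the 7 (Plac8, Ly6c2 and Ly6i) passed an adjusted p under 0.05 in the upward direction, which 2.25% of the 16402 tested genes did. The same 3 met the study's rule of a fold change above 1.5 with an unadjusted p under 0.05, which 3.59% of tested genes did upward. None passed in the downward direction, which 2.66% of tested genes did. Every MSR1 KO library lay above every MSR1 WT library for 4 of the 7, against 12.1% of tested genes. The members were chosen on this contrast, so nothing is read from these counts. Only Plac8 stayed called when MSR1 KO replicate 1, 2 or 3 or MSR1 WT replicate 1 or 2 was left out, while all 3 stayed without MSR1 WT replicate 3. The loss was general. Over all tested genes, those called higher fell from 369 to 42, 97 and 183 without MSR1 KO replicate 1, 2 and 3. They numbered 18, 62 and 407 without MSR1 WT replicate 1, 2 and 3. In these fits the log2 fold change ran from 1.22 to 1.70 for Ly6c2 and from 1.23 to 1.55 for Ly6i. The median log2 fold change was 1.10 over the 7 genes and -0.002 over all tested genes. In such bulk RNA, a change in the number of cells of a type and a change in RNA per cell cannot be told apart.

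**Figure D1:**
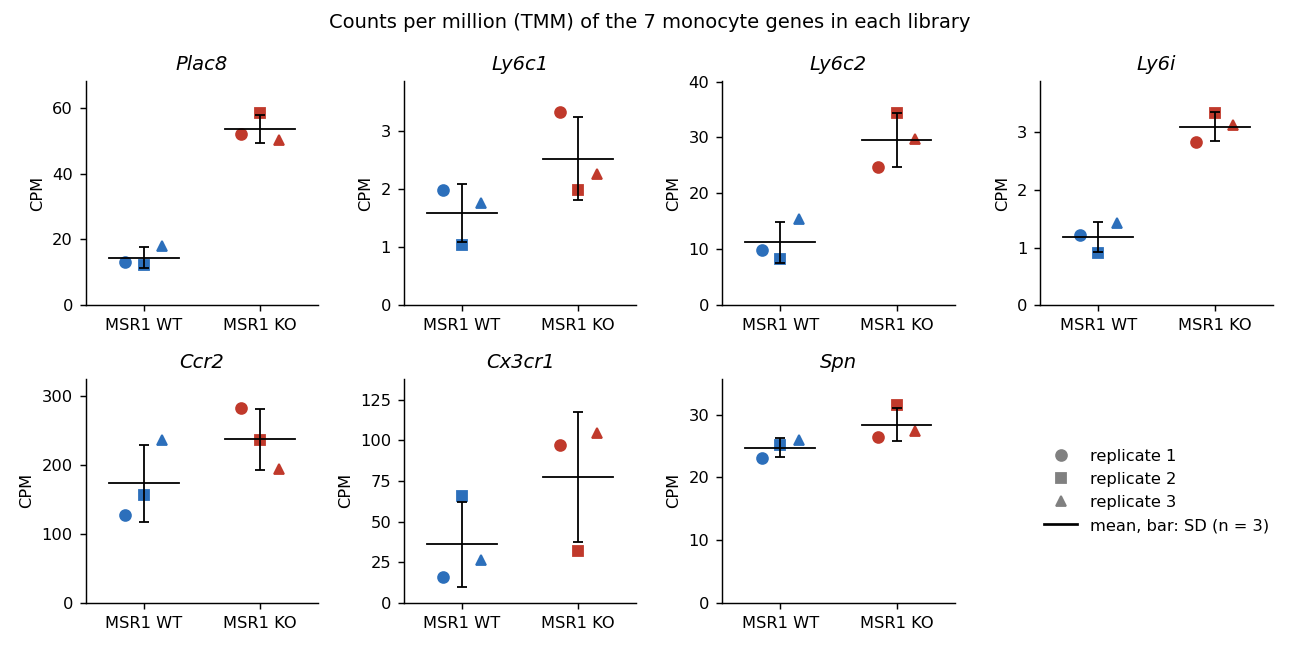
Levels in CPM (TMM scaled, y axes from 0) of the 7 genes in the 3 MSR1 WT (blue) and 3 MSR1 KO (red) libraries, with the mean and SD as black lines. The groups stand apart for Plac8, Ly6c2, Ly6i and narrowly for Spn, and they overlap for Ly6c1, Ccr2 and Cx3cr1.

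Plac8 (ENSMUSG00000029322.12) lies on the minus strand of GRCm38 at chr5:100553725-100572245, is protein coding, and shares no exon base with another annotated gene. Its counts were 1874, 2330 and 2338 in the KO libraries and 537, 584 and 746 in the WT libraries. In CPM these were 52.2, 58.5 and 50.3 in MSR1 KO, and 13.02, 12.3 and 18.1 in MSR1 WT. The lowest KO value was thus far above the highest WT value, and the KO libraries varied little. The mean was 53.7 ± 4.31 CPM (SD, n = 3) for MSR1 KO against 14.5 ± 3.13 CPM (SD, n = 3) for MSR1 WT, with a log2 fold change of 1.89 (SE 0.153). Of the 369 genes called higher, Plac8 had the 34th largest log2 fold change, or the 29th of the 363 that averaged at least 1 CPM. Leaving out each library in turn kept its log2 fold change between 1.79 and 2.08. No stretch of 50 bases of its transcripts recurred in any other annotated transcript.

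The promoters of Plac8, Ly6c1 and Ly6c2 are shown because Plac8 and Ly6c2 rose together and Ly6c1 is the closest relative of Ly6c2. They are RefSeq sequences on GRCm38.p6, from 250 bases before to 50 bases after the start site, all read on the minus strand, at chr5:100572156-100572455, chr15:75048788-75049087 and chr15:75111922-75112221. Capitals mark matches to a PU.1 motif.
Plac8 promoter: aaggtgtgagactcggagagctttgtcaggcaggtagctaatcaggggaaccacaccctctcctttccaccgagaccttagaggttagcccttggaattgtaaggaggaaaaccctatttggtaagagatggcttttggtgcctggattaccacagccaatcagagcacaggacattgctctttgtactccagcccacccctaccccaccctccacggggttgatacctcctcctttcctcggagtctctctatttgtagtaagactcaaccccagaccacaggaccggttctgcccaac
Ly6c1 promoter: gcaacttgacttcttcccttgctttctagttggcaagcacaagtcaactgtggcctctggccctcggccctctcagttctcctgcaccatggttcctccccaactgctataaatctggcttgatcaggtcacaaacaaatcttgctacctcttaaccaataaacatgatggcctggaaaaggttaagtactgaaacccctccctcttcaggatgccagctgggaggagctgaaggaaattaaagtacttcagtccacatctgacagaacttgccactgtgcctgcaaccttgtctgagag
Ly6c2 promoter: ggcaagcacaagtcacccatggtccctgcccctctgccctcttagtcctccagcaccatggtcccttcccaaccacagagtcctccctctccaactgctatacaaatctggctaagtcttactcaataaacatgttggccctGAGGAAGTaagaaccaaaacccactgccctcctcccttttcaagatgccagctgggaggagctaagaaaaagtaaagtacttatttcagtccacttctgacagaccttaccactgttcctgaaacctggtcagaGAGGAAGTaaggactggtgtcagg
Promoters were found for 6 of the 7 genes, and Ly6i had no entry. Motifs of 4 regulators known in monocytes or in interferon responses were searched on both strands. The letters were GAGGAAGT for PU.1, the master regulator of myeloid genes, TTGCNNCAA for C/EBP, GAAANNGAA for the core of the interferon-stimulated element and TTCNNNGAA for the STAT site. The PU.1 letters occurred in the Ly6c2 promoter alone among the 6, at positions -108 to -101 and 26 to 33 from its start site. The interferon-stimulated element occurred in the Ccr2 promoter alone, at positions -86 to -78, and the C/EBP and STAT letters in none of the 6. The matches did not overlap. Of 27025 promoters of the same length, 3.26% held the PU.1 letters, 2.098% the C/EBP letters, 8.58% the interferon-stimulated element and 8.36% the STAT site. The Ly6c1 and Ly6c2 promoters had 78.2% identical bases over 266 aligned positions. The other pairs among the 6 promoters ran from 55.8% for Ccr2 and Cx3cr1 to 67.9% for Cx3cr1 and Spn. A match of letters is no proof of binding, and a missing match says only that these letters were absent from the window.

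The 3 Ly6 genes lie in a cluster on the minus strand of chromosome 15, with Ly6i at chr15:74979534-74983430, Ly6c1 at chr15:75044018-75048830 and Ly6c2 at chr15:75108158-75111970. Among them, Ly6c2 (ENSMUSG00000022584.14) was the most abundant, with 887, 1369 and 1382 counts in MSR1 KO libraries and 410, 396 and 636 in MSR1 WT libraries. Its level was 24.7, 34.4 and 29.7 CPM in MSR1 KO against 9.94, 8.35 and 15.4 CPM in MSR1 WT. All KO values exceeded all WT values, and MSR1 WT replicate 3 was the highest of the WT libraries, as it was for Plac8. The means were 29.6 ± 4.85 CPM (SD, n = 3) for MSR1 KO against 11.2 ± 3.70 CPM (SD, n = 3) in MSR1 WT, a log2 fold change of 1.40 (SE 0.229).

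Ly6i (ENSMUSG00000022586.11) was scarce, with 102, 133 and 145 counts in MSR1 KO and 50, 43 and 59 counts in MSR1 WT libraries. It stood at 2.84, 3.34 and 3.12 CPM in MSR1 KO and at 1.21, 0.906 and 1.43 CPM in MSR1 WT. The genotypes did not overlap, and the spread within each was small for a gene of so few counts. The mean was 3.10 ± 0.251 CPM (SD, n = 3) in MSR1 KO against 1.182 ± 0.262 CPM (SD, n = 3) in MSR1 WT, a log2 fold change of 1.39 (SE 0.255), nearly that of Ly6c2.

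Ly6c1 (ENSMUSG00000079018.10) had 120, 79 and 105 counts in MSR1 KO libraries and 82, 49 and 73 counts in MSR1 WT libraries. These were 3.34, 1.98 and 2.26 CPM in MSR1 KO against 1.99, 1.03 and 1.77 CPM in MSR1 WT. MSR1 KO replicate 2 fell just below MSR1 WT replicate 1, so the genotypes overlapped. With means of 2.53 ± 0.717 CPM (SD, n = 3) and 1.60 ± 0.500 CPM (SD, n = 3), the log2 fold change was 0.66 (SE 0.331). Reads of Ly6c1 and Ly6c2 may have been split by the counting, because the transcripts are alike, and the value of Ly6c1 is uncertain for that reason.

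The coding sequences of Ly6c1 and Ly6c2 are shown to make this likeness visible, as their first 300 bases from the start codon in GENCODE vM21, with the bases that differ between the genes in capitals.
Ly6c1 coding sequence: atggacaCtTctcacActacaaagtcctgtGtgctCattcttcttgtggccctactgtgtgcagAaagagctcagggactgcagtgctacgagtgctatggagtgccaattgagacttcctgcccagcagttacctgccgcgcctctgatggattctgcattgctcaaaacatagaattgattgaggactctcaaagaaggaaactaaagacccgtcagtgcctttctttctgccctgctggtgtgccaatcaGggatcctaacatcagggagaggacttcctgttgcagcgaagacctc
Ly6c2 coding sequence: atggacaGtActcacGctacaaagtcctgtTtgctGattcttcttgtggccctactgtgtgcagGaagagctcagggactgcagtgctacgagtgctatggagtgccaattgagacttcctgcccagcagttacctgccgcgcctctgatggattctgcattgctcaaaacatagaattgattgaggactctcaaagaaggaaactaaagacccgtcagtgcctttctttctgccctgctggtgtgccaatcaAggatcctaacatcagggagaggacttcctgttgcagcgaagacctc
These stretches hold 7 of the differing bases. Both coding sequences have 396 bases, of which 387 (97.7%) were identical and 9 differed, and the longest identical run covered 188 bases. Over all transcripts, 32.8% of the 50-base windows of Ly6c1 also occurred in another gene and 21.5% occurred in Ly6c2, while 14.4% of the windows of Ly6c2 did. For Ly6i the share was 4.76%. Ly6c1 held 11.9% of the joint Ly6c1 and Ly6c2 counts in MSR1 KO replicate 1 (95% Wilson interval 10.1 to 14.1), 5.46% in replicate 2 (4.40 to 6.75) and 7.06% in replicate 3 (5.87 to 8.48). In MSR1 WT libraries its share was 16.7% (13.6 to 20.2), 11.01% (8.43 to 14.3) and 10.3% (8.27 to 12.8). These intervals cover counting error only. The KO and WT shares overlapped. With the counts of both genes summed, the log2 fold change was 1.33 (SE 0.212), close to that of Ly6c2 alone, which holds most of these counts, and it was 1.33 (SE 0.207) with Ly6i added.

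Other Ly6 genes of the cluster rose as well. Ly6a, which encodes the stem cell antigen Sca-1 and lies between Ly6i and Ly6c1, had 163, 220 and 155 CPM in MSR1 KO and 50.6, 40.5 and 82.7 CPM in MSR1 WT libraries, with a log2 fold change of 1.63 (SE 0.256, adjusted p = 0.019). Ly6e, a broadly expressed member next to Ly6i, had 1476, 1512 and 1635 CPM against 883, 726 and 1069 CPM, a log2 fold change of 0.79 (SE 0.129, adjusted p = 0.021). The KO and WT libraries did not overlap for either gene. Of 28 further genes of the Ly6 family, 10 had enough counts to be tested, 2 rose (Ly6a and Ly6e), none fell by edgeR, and the median log2 fold change was 0.14. Both at an unadjusted p under 0.05 and by DESeq2, 2 were higher and 1 lower. Among those not called, Plaur, the urokinase receptor, had a log2 fold change of -0.42 (SE 0.123) and Lynx1, a brain member, -0.31 (SE 0.176). In the table, 12 of the 28 had 0 counts in every library, 5 had at most 20 counts in a library, and Ly6m was not matched. The nearest tested gene on the other side of Ly6c2, I830127L07Rik, had a log2 fold change of 0.34 (SE 0.175, adjusted p = 0.35). The nearest tested genes beside Plac8 were Cops4, at 0.14 (SE 0.0898, adjusted p = 0.47), and Coq2, at 0.42 (SE 0.114, adjusted p = 0.085), so neither was called. Both relatives of Plac8 with the same protein domain, Plac8l1 and Cnfn, had 0 counts in every library, which allows at most 3 counts in each.

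Ccr2 (ENSMUSG00000049103.14, plus strand, chr9:124101950-124113557) had the most counts of the 7 genes, with 10140, 9391 and 9041 in MSR1 KO and 5277, 7421 and 9750 in MSR1 WT libraries. In CPM it stood at 282, 236 and 195 in MSR1 KO and at 128, 156 and 236 in MSR1 WT. Its highest WT library equalled the middle KO library to 3 digits, so the genotypes overlapped although depth was ample. The means were 238 ± 43.9 CPM (SD, n = 3) for MSR1 KO against 173 ± 56.0 CPM (SD, n = 3) in MSR1 WT, a log2 fold change of 0.45 (SE 0.221) that ranged from 0.28 to 0.74 with each library left out. Ccr3, the nearest tested gene before Ccr2, had a log2 fold change of 0.20 (SE 0.161, adjusted p = 0.56). Of the 50-base windows of Ccr2, 1.91% recurred in other genes.

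Cx3cr1 (ENSMUSG00000052336.7, minus strand, chr9:119901616-120069879) differed more between libraries of a genotype than between the genotypes. It had 3481, 1261 and 4863 counts in MSR1 KO and 669, 3127 and 1089 counts in MSR1 WT libraries. That is 96.9, 31.7 and 105 CPM in MSR1 KO against 16.2, 65.9 and 26.4 CPM in MSR1 WT, a span of 3.30 times among KO and 4.06 times among WT libraries. MSR1 KO replicate 2 was low and MSR1 WT replicate 2 high, so the genotypes overlapped widely. The SD of its log2 CPM within a genotype was 0.995, above that of 95.5% of tested genes, whose median was 0.193. With means of 77.7 ± 40.1 CPM (SD, n = 3) and 36.2 ± 26.3 CPM (SD, n = 3), its log2 fold change was 1.10 (SE 0.559) and ranged from 0.75 to 1.87 with each library left out. Of its exon bases, 1.73% overlap Gm33858 on the other strand, and the strand setting of the counting is not given in the sources used here. The nearest tested genes, Exog and Slc25a38, had log2 fold changes of 0.02 and 0.31 and were not called.

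Spn (ENSMUSG00000051457.7, minus strand, chr7:127132232-127137823) was the steadiest of the 7. It had 949, 1252 and 1269 counts in MSR1 KO libraries and 949, 1195 and 1073 counts in MSR1 WT libraries. Scaled to library size, these were 26.4, 31.4 and 27.3 CPM in MSR1 KO and 23.0, 25.2 and 25.97 CPM in MSR1 WT. The genotypes stood apart only narrowly, as the lowest KO and the highest WT library differed by less than the SD of either group. Its means were 28.4 ± 2.68 CPM (SD, n = 3) and 24.7 ± 1.53 CPM (SD, n = 3), a log2 fold change of 0.20 (SE 0.102). The nearest tested genes were AI467606, at a log2 fold change of 0.31 (SE 0.0911, adjusted p = 0.10), and Cd2bp2, at -0.23 (SE 0.263, adjusted p = 0.71).

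Levels were also set against each other per kb of exon. In MSR1 WT macrophages Ccr2 led at 25.7 CPM per kb of exon, apart from all others, followed by Plac8 at 9.09, Cx3cr1 at 8.03, Spn at 5.28 and Ly6c2 at 4.10. The ranges of each of these 4 overlapped that of its neighbour in the order. Ly6i at 1.02 and Ly6c1 at 0.952 came last and overlapped each other. In MSR1 KO macrophages Plac8 reached 33.7, within the range of Ccr2 at 35.1. Cx3cr1 at 17.3 and Ly6c2 at 10.8 followed with overlapping ranges, and Spn at 6.07, Ly6i at 2.68 and Ly6c1 at 1.51 were each apart from the next. Plac8 thus lay in the range of Cx3cr1 in MSR1 WT and in that of Ccr2 in MSR1 KO. Ly6c2 was above Spn in MSR1 KO, while in MSR1 WT their ranges overlapped.

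**Figure D2:**
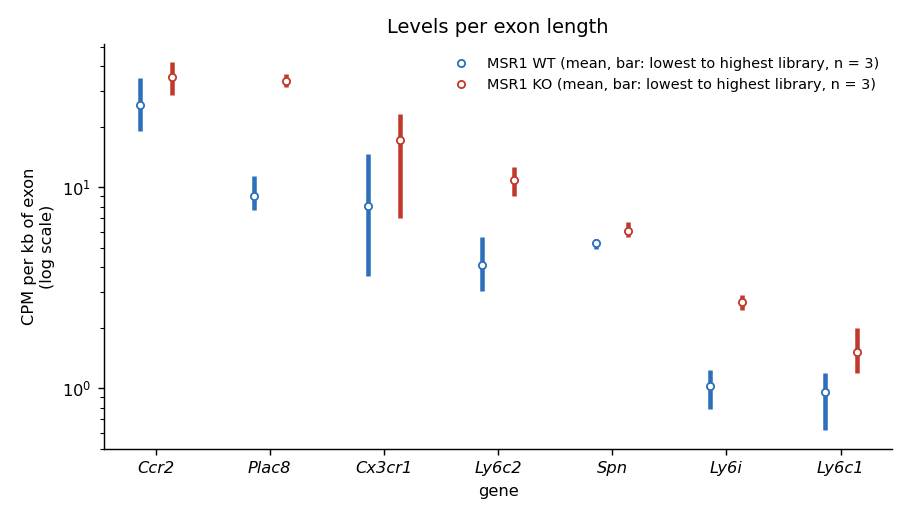
Level per exon length (CPM per kb of exon, log axis) of the 7 genes, ordered by their MSR1 KO mean, with the mean (circle) and the range of 3 libraries (bar) in MSR1 WT (blue) and MSR1 KO (red). Plac8 stands beside Cx3cr1 in MSR1 WT and beside Ccr2 in MSR1 KO.

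To see which genes behaved like Plac8 over the 6 libraries, log2 CPM were centred on their mean for each of 13611 genes that averaged at least 1 CPM, and the root mean square difference from Plac8 was taken. Genes that share the same 6 libraries and the same rise are close by construction, so this is a description. The 5 nearest genes were Apol9b at 0.179, Ly6a at 0.202, Tnfsf10 at 0.220, Rsad2 at 0.227 and Ifi205 at 0.228 log2 units. Tnfsf10 encodes the death ligand TRAIL, Rsad2 the antiviral protein viperin and Ifi205 a member of a family of interferon-inducible proteins. Among the monocyte genes, Ly6c2 followed at 0.277 with 15 genes nearer, and Ly6i at 0.288 with 23 genes nearer. The others were farther, with Ly6c1 at 0.719, Ccr2 at 0.739, Spn at 0.868 and Cx3cr1 at 0.982 log2 units, the last with 6721 genes nearer. For Plac8, Ly6c2, Ly6i and each of the 5 nearest genes, MSR1 WT replicate 3 was the highest WT library and MSR1 WT replicate 2 the lowest. In Cx3cr1, by contrast, MSR1 WT replicate 2 was the highest.

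**Figure D3:**
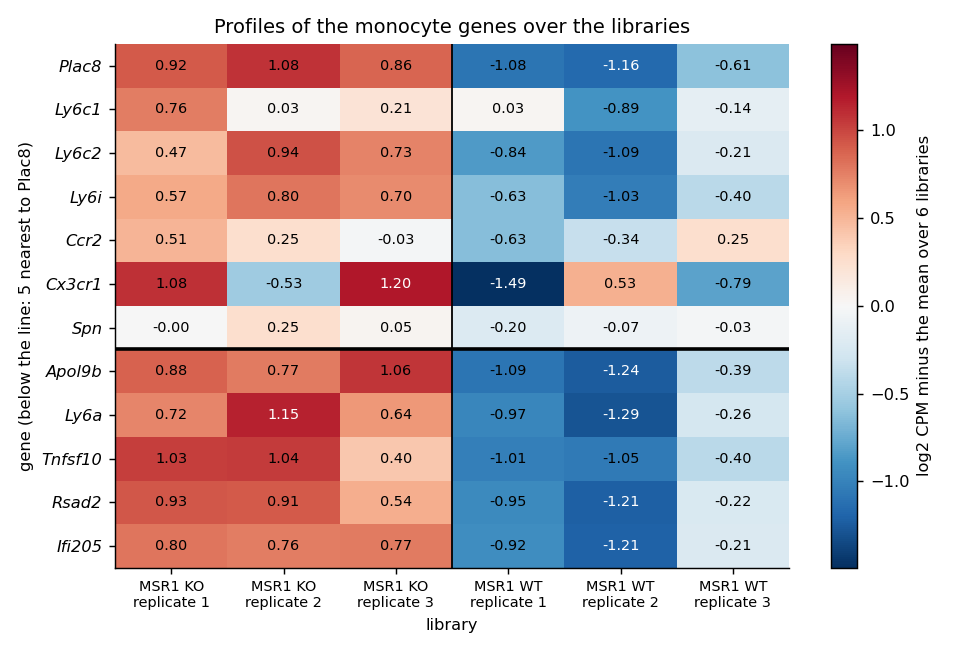
Log2 CPM minus the mean over the 6 libraries (color and printed value) for the 7 monocyte genes and, under the line, the 5 genes whose profile was nearest to Plac8. Plac8, Ly6c2, Ly6i and those 5 genes are positive in all KO and negative in all WT libraries, while Cx3cr1 changes sign within each genotype.

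Further genes of classical monocytes moved in both directions. Of 20 listed genes, all were tested, 5 rose, 2 fell and 13 did not pass, with a median log2 fold change of -0.14 against -0.002 over all tested genes. At an unadjusted p under 0.05, 6 were higher and 6 lower, DESeq2 called 5 higher and 4 lower, and the study's rule gave 3 and 3. Of all tested genes, 4.91% were called in either direction. Ms4a4c, a tetraspan membrane protein, had 169, 198 and 175 CPM in MSR1 KO and 38.9, 32.4 and 85.1 CPM in MSR1 WT, a log2 fold change of 1.79 (SE 0.324, adjusted p = 0.026). Ifitm6, Sirpb1c and Ctsc also rose, by 0.71, 0.49 and 0.54 on the log2 scale. Against them, F13a1, which encodes a subunit of coagulation factor XIII, fell from 339, 413 and 275 CPM in MSR1 WT to 156, 124 and 141 CPM in MSR1 KO, a log2 fold change of -1.29 (SE 0.150, adjusted p = 0.0084). S100a6, a calcium-binding protein, fell with a log2 fold change of -0.62 (SE 0.114, adjusted p = 0.027), and its relative S100a4 had one of -0.72 (SE 0.191, adjusted p = 0.077). Vcan, Chil3, Hp, Mgst1, Lyz2 and Cd14, which are among the best known genes of these cells, did not pass, with log2 fold changes from -0.57 for Vcan to 0.20 for Cd14. The list as a whole had summed levels of 19028 to 19763 CPM in MSR1 KO and 19346 to 21907 CPM in MSR1 WT libraries, which overlapped.

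Genes of nonclassical monocytes did not rise by edgeR. Of 16 listed and tested, none rose and 2 fell, and the median log2 fold change was 0.09. At an unadjusted p under 0.05, 4 were higher and 3 lower, and DESeq2 called 3 higher and 3 lower. The integrin gene Itgax (CD11c) fell from 112, 77.4 and 144 CPM in MSR1 WT to 25.2, 18.4 and 15.4 CPM in MSR1 KO, a log2 fold change of -2.50 (SE 0.254, adjusted p = 0.0045). Cd36, a scavenger receptor like MSR1, fell slightly, with a log2 fold change of -0.32 (SE 0.0728, adjusted p = 0.048). Among those not called were Fabp4, a fatty acid carrier, at -0.72 (SE 0.211, adjusted p = 0.10), the integrin Itgal at 0.47 (SE 0.164, adjusted p = 0.16) and Cd300e at 0.45 (SE 0.185, adjusted p = 0.23). Nr4a1, the transcription factor that nonclassical monocytes depend on, had a log2 fold change of 0.37 (SE 0.194, adjusted p = 0.36). Of 14 precursor genes of the marrow, 1 rose and none fell, with a median log2 fold change of 0.17. At an unadjusted p under 0.05, 4 were higher and 0 lower, and DESeq2 called 1 higher and 0 lower. That gene was Kit, the stem cell factor receptor, with 19.5, 21.7 and 21.8 CPM in MSR1 KO and 10.1, 6.91 and 13.7 CPM in MSR1 WT, a log2 fold change of 1.04 (SE 0.223, adjusted p = 0.039). The transcription factors Myb and Gfi1 and the granule enzyme Mpo had log2 fold changes of 0.73, 0.58 and 0.44 and were not called.

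Genes of mature macrophages had a median log2 fold change of 0.05 over 20 tested. Of these, 2 rose and 2 fell by edgeR. DESeq2 called 5 higher and 3 lower, and 6 were higher and 5 lower at an unadjusted p under 0.05. Fcgr1, the high-affinity receptor for IgG, had 571, 607 and 510 CPM in MSR1 KO and 241, 196 and 331 CPM in MSR1 WT, a log2 fold change of 1.14 (SE 0.175, adjusted p = 0.018). Axl, a receptor kinase for the uptake of dead cells, rose by 0.57 on the log2 scale (SE 0.131, adjusted p = 0.048). The mannose receptor gene Mrc1 and the lysosomal gene Cd63 both had a log2 fold change of -0.39, with adjusted p = 0.037 and 0.040. The pan-macrophage gene Adgre1 (F4/80) had 2345, 2458 and 2279 CPM in MSR1 KO and 2270, 2172 and 2322 CPM in MSR1 WT, a log2 fold change of 0.07 (SE 0.0608, adjusted p = 0.63).

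Receptors of the same kind as Ccr2 and Cx3cr1 had mostly positive fold changes. Of 21 tested chemoattractant receptors, 2 rose, none fell, and the median log2 fold change was 0.44. Fpr2, a receptor of formylated peptides, rose by a log2 fold change of 0.72 (SE 0.143, adjusted p = 0.032). At an unadjusted p under 0.05, 9 were higher and 0 lower, and DESeq2 called 6 higher and 0 lower. Ccr9, Cxcr6 and Cxcr2, chemokine receptors of lymphocytes and neutrophils, had log2 fold changes of 1.69, 1.01 and 0.93 (adjusted p = 0.10, 0.16 and 0.13). Of 13 ligands and partners of the 7 proteins, 1 rose and 0 fell by edgeR, with 4 higher and 0 lower at an unadjusted p under 0.05 and 3 higher and 0 lower by DESeq2, and the median log2 fold change was 0.12. It was Siglec1, a sialic acid receptor that binds CD43, with a log2 fold change of 0.63 (SE 0.116, adjusted p = 0.027). The CCR2 ligand Ccl2 had a log2 fold change of 0.32 (SE 0.137, adjusted p = 0.25), and Ccl12 had one of 2.15 (SE 0.553, adjusted p = 0.069) from at most 5.75 CPM in any library. Ccl8 had a log2 fold change of 2.35 (SE 0.810, adjusted p = 0.16), with 6.00 CPM in MSR1 KO replicate 2 and at most 1.39 CPM elsewhere. Cx3cl1, which encodes fractalkine, had 3.37, 3.22 and 0.172 CPM in MSR1 KO and 4.88, 4.78 and 4.77 CPM in MSR1 WT, a log2 fold change of -1.11 (SE 0.727, adjusted p = 0.48).

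Genes of the interferon response rose. Of 30 tested, 27 rose and none fell, with 29 higher and 0 lower both at an unadjusted p under 0.05 and by DESeq2, and the median log2 fold change was 1.27. The exceptions were Ifit1 and Usp18, each at 1.08 with adjusted p = 0.052 and 0.063, and Cxcl9, at 1.61 with adjusted p = 0.42. Gbp2, a guanylate-binding protein, had the largest log2 fold change of the list at 3.04 (SE 0.645, adjusted p = 0.039), with 260, 598 and 67.6 CPM in MSR1 KO against 37.0, 34.3 and 41.4 CPM in MSR1 WT. Its relatives Gbp3 and Gbp5 rose by 2.16 (SE 0.364, adjusted p = 0.0225) and 2.14 (SE 0.368, adjusted p = 0.0234) on the log2 scale. Iigp1, a GTPase against intracellular pathogens, had 231, 307 and 95.7 CPM in MSR1 KO and 37.7, 24.7 and 59.8 CPM in MSR1 WT, a log2 fold change of 2.37 (SE 0.446, adjusted p = 0.027). These 4 genes, named for their large fold changes, were lowest among KO libraries in MSR1 KO replicate 3 by a wide margin. Plac8 was also lowest there, by a small margin. The summed level of the list ran from 5201 to 7353 CPM in MSR1 KO and from 1991 to 3342 CPM in MSR1 WT. Within each genotype, the sum ranked the libraries as Plac8 did. Both were highest in MSR1 KO replicate 2 and MSR1 WT replicate 3. Both were lowest in MSR1 KO replicate 3 and MSR1 WT replicate 2. Ly6c2 had this order in MSR1 WT, but among KO libraries it was lowest in MSR1 KO replicate 1. Earlier results of these libraries had already shown interferon genes among the rises, so the count is no independent evidence. The part of this response in the levels of Plac8 and the Ly6 genes was not tested.

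**Figure D4:**
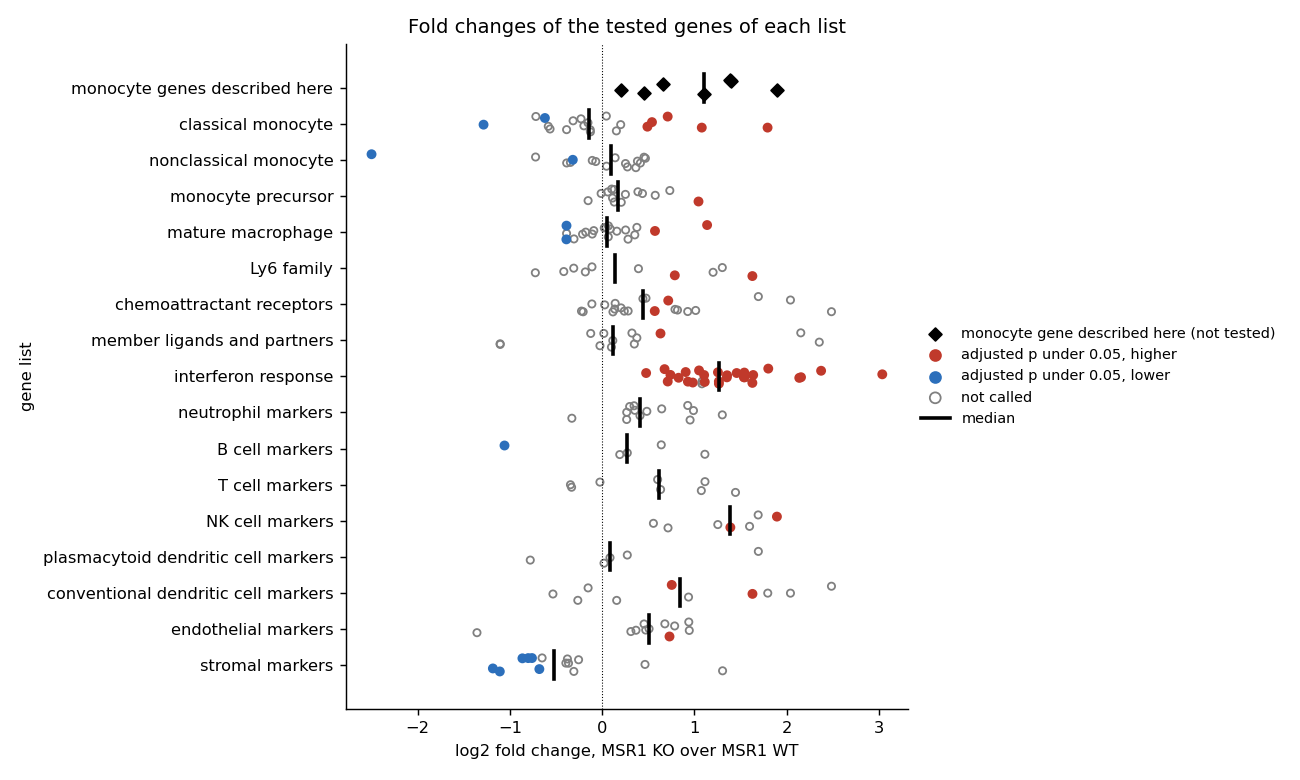
Log2 fold change (MSR1 KO over MSR1 WT, x axis) of the 7 monocyte genes (black diamonds) and of the tested genes of each list (circles, filled in red or blue where edgeR's adjusted p was under 0.05), with the median of each list as a bar. The interferon list has 27 of 30 genes called higher, and the classical monocyte list has 5 higher and 2 lower.

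Markers of other cells that can express these genes were measured too. Markers of NK cells, which carry Plac8, Ly6C, CX3CR1 and CD43, had summed levels of 56.6 to 65.7 CPM in MSR1 KO and 10.8 to 32.1 CPM in MSR1 WT libraries, without overlap. Of 7 tested NK markers, 2 rose, with Gzmb, the cytotoxic protease granzyme B, at a log2 fold change of 1.90 (SE 0.306, adjusted p = 0.020) and Klrb1c, the NK1.1 receptor, at 1.39 (SE 0.264, adjusted p = 0.028). Klrk1 and Gzma had log2 fold changes of 1.69 and 1.60 (adjusted p = 0.105 and 0.101) and were not called. At an unadjusted p under 0.05, 4 were higher and 0 lower, DESeq2 called 4 higher and 0 lower, and the median log2 fold change was 1.39. The defining receptor Ncr1 had 4.79, 5.95 and 6.11 CPM in MSR1 KO and 3.13, 1.56 and 5.62 CPM in MSR1 WT, a log2 fold change of 0.71 (SE 0.399, adjusted p = 0.39). Klra8 was at 0 in every library, and Prf1 and Klre1 had at most 12 counts in a library. The summed NK markers stood at 32.1 CPM in MSR1 WT replicate 3 and at 10.8 CPM in MSR1 WT replicate 2. Among WT libraries, Plac8 was highest and lowest in the same ones. The KO libraries went the other way. The sum was highest in MSR1 KO replicate 3, at 65.7 CPM, where Plac8 was lowest. It was lowest in MSR1 KO replicate 2, where Plac8 was highest, at 56.6 CPM against 57.0 CPM in MSR1 KO replicate 1. The part of NK cells in the result was not tested.

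Conventional dendritic cell markers summed to 50.5 to 58.2 CPM in MSR1 KO and 25.4 to 35.5 CPM in MSR1 WT, and 2 of 10 rose, Dpp4 by 1.63 and Cadm1 by 0.75 on the log2 scale. At an unadjusted p under 0.05, 4 were higher and 0 lower, and DESeq2 called 3 higher and 0 lower. Their median log2 fold change was 0.85, and the largest was 2.49 (SE 0.907, adjusted p = 0.18) for Ccr7, which had at most 1.29 CPM in any library and was named after its value was seen. The defining gene Zbtb46 had at most 1.96 CPM in any library and a log2 fold change of -0.53 (SE 0.377), and Batf3 had one of -0.26 (SE 0.336). B cell markers summed to 267 to 314 CPM in MSR1 KO and 188 to 237 CPM in MSR1 WT, mostly from Ighm, while Cd79a, Ms4a1 and Pax5 had at most 19 counts in a library and Blk was at 0. Of 5 tested, none rose and Ebf1 fell with a log2 fold change of -1.07 (SE 0.162, adjusted p = 0.018). DESeq2 called 1 of them higher, and 1 was higher at an unadjusted p under 0.05. The median log2 fold change was 0.27 and the largest 1.11, with Ighm at 0.64, Cd79b at 0.27 and Cd22 at 0.19. T cell markers summed to 193 to 258 CPM in MSR1 KO and 209 to 285 CPM in MSR1 WT, and Cd3d, Cd3e, Cd8a and Themis had at most 21 counts in a library. Of 8 tested, edgeR called none, with 2 higher and 1 lower at an unadjusted p under 0.05 and 1 higher and 0 lower by DESeq2. The median log2 fold change was 0.62, with the kinase gene Lck at 1.45 (SE 0.430, adjusted p = 0.11), Il7r at -0.33 and Cd4 at -0.02.

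Neutrophil markers, with Ly6g and the granule gene Ngp among them, summed to 1406 to 1868 CPM in MSR1 KO and 1144 to 1641 CPM in MSR1 WT, which overlapped. edgeR called none of the 13 tested, DESeq2 called 3 higher, and 5 were higher and 1 lower at an unadjusted p under 0.05. The median log2 fold change was 0.41, with Retnlg at 0.99, Mrgpra2b at 0.95, Cxcr2 at 0.93 and Camp at 0.65. Plasmacytoid dendritic cell markers summed to 115 to 139 CPM in MSR1 KO and 111 to 130 CPM in MSR1 WT. edgeR called none of 5, while DESeq2 called 1 higher and 1 was higher at an unadjusted p under 0.05, with 0 lower by either. Their log2 fold changes had a median of 0.08 and ran from -0.78 (SE 0.721, adjusted p = 0.63) for Siglech to 1.69 (SE 0.494, adjusted p = 0.10) for Ccr9, with Tcf4 at 0.08 and Runx2 at 0.02. Siglech, a defining receptor of these cells, had at most 0.750 CPM in any library and was named after its value was seen. Klk1 and Ly6d were at 0 in every library. Endothelial cells, which express Ly6c1, had markers that summed to 127 to 156 CPM in MSR1 KO and 87.6 to 128 CPM in MSR1 WT, and 1 of 11 rose, Pecam1 at 0.72 (SE 0.135, adjusted p = 0.027). None fell by edgeR, 2 were higher and 1 lower both at an unadjusted p under 0.05 and by DESeq2, and the median log2 fold change was 0.51. Vwf, Ptprb and Kdr were not called at -1.36, 0.94 and 0.79 (adjusted p = 0.051, 0.13 and 0.38). Stromal markers summed to 2244 to 2929 CPM in MSR1 KO and 3200 to 4030 CPM in MSR1 WT, and of 14 tested 6 fell and none rose, with 1 higher and 9 lower at an unadjusted p under 0.05 and 1 higher and 8 lower by DESeq2. The median log2 fold change was -0.52. Pdgfra at -1.19 (adjusted p = 0.014), Cxcl12 at -1.11 (adjusted p = 0.031) and Pdgfrb at -0.87 (adjusted p = 0.025) were among those that fell, and Thy1 at 1.31 (adjusted p = 0.091) was not called. The part of these cells in the levels of the monocyte genes was not tested.

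**Figure D5:**
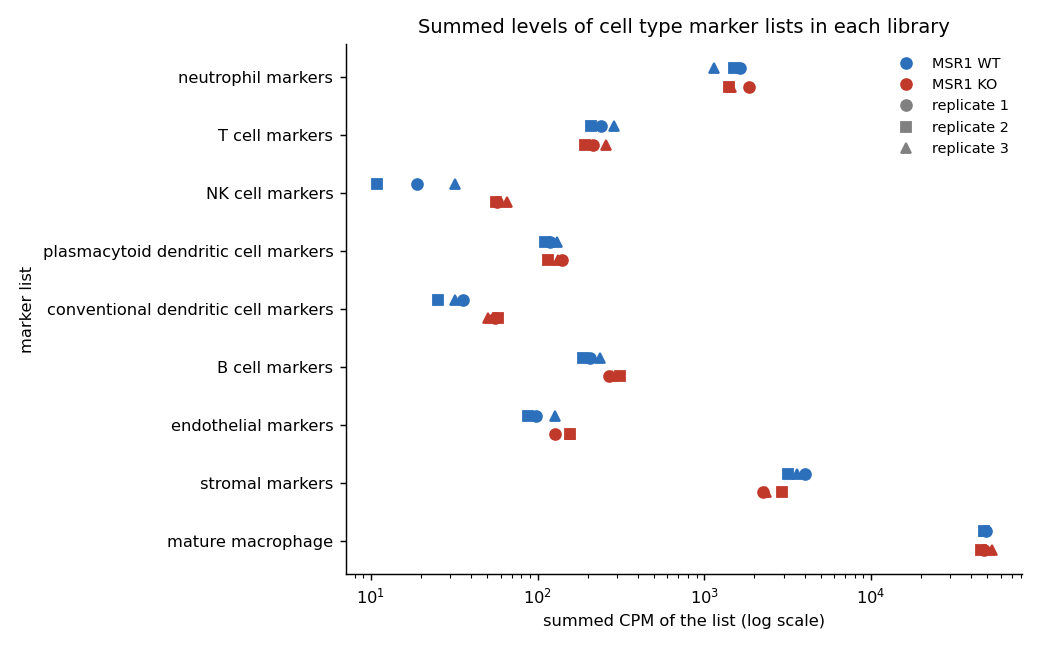
Summed CPM (log axis) of 8 marker lists of other cell types and of the mature macrophage list in the 3 MSR1 WT (blue) and 3 MSR1 KO (red) libraries. NK cell, conventional dendritic cell and B cell sums are higher in every MSR1 KO library, stromal sums are lower, and the mature macrophage sums overlap.

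Over all 17 lists, 45 of 211 tested genes rose and 13 fell, and 18 of the 45 were outside the interferon list. These counts depended on single libraries, as did the counts over all tested genes. Without MSR1 KO replicate 1 or MSR1 WT replicate 1, 2 of the list genes rose. Without MSR1 KO replicate 2, MSR1 KO replicate 3 or MSR1 WT replicate 2, 13, 20 and 11 of them did. Those that fell were 3 without MSR1 KO replicate 1, 2 without MSR1 WT replicate 1, and 8 without MSR1 KO replicate 3 or MSR1 WT replicate 2. For the classical monocyte list, none rose without MSR1 KO replicate 1, MSR1 WT replicate 1 or MSR1 WT replicate 2. In the interferon list, 2 rose without MSR1 KO replicate 1 or MSR1 WT replicate 1, 8 and 13 rose without MSR1 KO replicates 2 and 3, and 6 rose without MSR1 WT replicate 2. All 58 called genes kept their direction in every alternative in which they were fitted.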

How the data were processed

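RNA-seq of MSR1 KO and MSR1 WT macrophages (n = 3 each) was analysed from raw counts per gene that the authors deposited. The paper names TopHat, whereas the submitters' processing notes list fastp 0.17.1 and HISAT2 2.1.0. The counter, strand setting and build are not given in the sources used here, and 49909 of 52403 matched genes had GRCm38 positions of GENCODE vM21. Deposited normalised columns and the authors' own fold changes and p-values were not used. Counts were filtered (filterByExpr), scaled by TMM and tested with glmQLFTest of edgeR 4.0.16 in R 4.3.3, with Benjamini-Hochberg adjustment over 16402 genes. SE was the absolute log2 fold change divided by the root of the F statistic, and the prior count of log2 CPM was 2. Alternatives were DESeq2 1.42.0, its size factors, library size alone, other filters, a replicate block, summed Ly6 counts and each library left out. Methods were tested on simulated data.

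The members and lists were chosen with earlier results of these data known. Named were all members, Msr1, their nearest tested neighbours, the 5 genes most like Plac8, and of each list up to 4 tested genes with the largest absolute log2 fold change and a mean of at least 1 CPM. The other genes named (such as Csf1r, Ifitm6, Sirpb1c, Ctsc, S100a6, Vcan, Cd14, Cd36, Nr4a1, Adgre1, Ccl2, Ncr1, Ifit1, Usp18 and Cxcl9) were chosen after their values were seen. Some genes that this rule covers are not reported here. Spreadsheet dates had replaced 27 symbols, of which 26 were restored.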

Additional observations from a re-analysis of the deposited data

How the results depend on the processing

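All 7 monocyte genes kept a positive log2 fold change under every alternative. The log2 fold change was 0.66 for Ly6c1 alone, 1.33 for the summed counts of Ly6c1 and Ly6c2 and 1.33 with Ly6i added. Since Ly6c2 holds most of these counts, the sums give no value for Ly6c1 itself. The number of monocyte genes called higher was 3, fell to 1 with a replicate block and ran from 1 to 3 with each library left out. List genes called higher numbered 45, 6 with the block and from 2 to 55 with a library left out. List genes called lower numbered 13, 21 by DESeq2, 4 with the block and from 2 to 12 with a library left out. The block rests on replicate numbers that the labels do not describe as pairs. The deviations of same-numbered libraries correlated at -0.026, 0.019 and -0.005, and not every library correlated best with its own number. No shared deviation was thus seen, but so few libraries cannot show that they were unpaired. Over all genes, 369 were called higher and 436 lower, with 720 and 848 by DESeq2, 237 and 288 with no filter, 59 and 78 with the block, and 18 and 53 without MSR1 WT replicate 1. Ly6c1 and Ly6i had the fewest counts of the 7, from 43 to 145 in a library.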

Other observations

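Because Cx3cr1 varied so widely within each genotype, the genes with the nearest centred profile were looked up, a choice made after its values were seen. They were Aqp9 at a root mean square difference of 0.416 log2 units, Prr33 at 0.473, Tmem17 at 0.558, Gm21887 at 0.598 and Grap2 at 0.606. Aqp9, a glycerol and water channel of leukocytes and liver, had 2.17, 0.904 and 1.36 CPM in MSR1 KO libraries and 0.291, 1.01 and 0.702 CPM in MSR1 WT libraries. As for Cx3cr1, MSR1 KO replicate 2 was the lowest KO library and MSR1 WT replicate 2 the highest WT library. Gm21887 had 33.1, 10.4 and 22.3 CPM in MSR1 KO and 3.64, 19.5 and 19.9 CPM in MSR1 WT, where replicates 2 and 3 were alike. All 5 nearest genes were farther from Cx3cr1 than any of the 5 nearest genes was from Plac8.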
